A study of Mus musculus with 2 samples.

Results

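The genes described here encode the aminoacyl-tRNA synthetases of the cytosol and of mitochondria, together with the 3 scaffold proteins of the multisynthetase complex (Aimp1, Aimp2 and Eef1e1). The group was chosen with earlier results of these data known, so the counts below describe it and do not test it. Its members were found by gene symbol alone, a rule that uses no measured value, among probe sets annotated to exactly 1 gene. This gave 77 probe sets of 39 genes out of 34945 probe sets of 18193 genes with 1 symbol: 20 cytosolic enzymes or subunits, 16 mitochondrial enzymes and the 3 scaffold genes. Total RNA of Neuro2a cells, an established mouse neuroblastoma line, was hybridised to Affymetrix arrays of the Mouse Genome 430 2.0 design. The cells of 1 array had received a control siRNA that is non-specific, and those of the other an siRNA against Tmem132a (mKIAA1583). Each sample is a transfected population of the same line, and the labels name no other treatment or time. With 1 array per group the differences have no replicate error and were not tested, and the number of arrays limits the precision of every value below.

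Each aminoacyl-tRNA synthetase joins an amino acid to its tRNAs, which then carry it to the ribosome. Mammalian cells make 1 set of these enzymes for the cytosol and another, from separate nuclear genes, for mitochondria, where the symbols end in 2. The enzymes fall into class I and class II by the fold of their catalytic domain, and several cytosolic ones are held together with the scaffold proteins in the multisynthetase complex. Genes of many cytosolic synthetases are known targets of ATF4, the transcription factor of the integrated stress response, which binds composite C/EBP-ATF elements.

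The signal of Tmem132a was 1825.5 after the control siRNA and 435.6 after its own siRNA, a log2 ratio of -2.07. The free-text description of the second sample repeats the control's, and the group was taken from its title. Of 14 markers of sympathetic neuroblasts with a probe set, 12 passed the signal filter, and the summed signal of the 14 went from 59309.7 with the control siRNA to 50655.5 with the Tmem132a siRNA. Of fibroblast markers 0 of 7 passed, of glial markers 1 of 5 (Mbp), of macrophage and lymphocyte markers 1 of 6 (Csf1r) and of epithelial and endothelial markers 1 of 6 (Epcam). Their summed signals went from 280.1 to 263.7 for fibroblast, from 263.4 to 386.5 for glia, from 240.3 to 398.7 for macrophages and lymphocytes, and from 200.3 to 317.1 for epithelium and endothelium. Of the markers past the filter, Mbp went from 116.8 to 123.2, Csf1r from 169.8 to 158.5 and Epcam from 70.9 to 146.1. The rest of these sums came from probe sets with a mean signal under the filter signal of 77.25. The part of these cell types in the ratios below was not tested. In bulk RNA, fewer cells of a type and less RNA per cell cannot be told apart.

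Promoters were searched because ATF4 targets are known to carry such elements near their start. RefSeq promoter sequences (GRCm38.p6, from 250 bases before to 50 after the gene start) were matched for 30 of the 39 genes, 13 cytosolic, 14 mitochondrial and 3 scaffold. The C/EBP-ATF element was searched on both strands as TGATGCAA, which reads TTGCATCA when it lies on the opposite strand, and in the looser form TGATGNAA, of which the first is a case. A gene was counted if any of its promoters held the element. TGATGCAA was found in 4 of 13 cytosolic genes (Aars, Iars, Tars and Yars), 0 of 14 mitochondrial and 0 of 3 scaffold genes. It was in 0.895% of all 32851 single promoters, and by gene 63 measured genes held it and 8635 did not. The looser form added Gars and reached 5 of 13 cytosolic, 0 of 14 mitochondrial and 0 of 3 scaffold genes. It was in 3.97% of all single promoters, and by gene 233 measured genes held it and 8465 did not. The 4 stretches with the stricter form are shown because they are the only ones among the 30 matched genes that hold it. Each is 60 bases long, is read 5′ to 3′ along the gene's own strand, and has the element in capitals.
Aars, alanine, chr8:111033690-111033749, + strand: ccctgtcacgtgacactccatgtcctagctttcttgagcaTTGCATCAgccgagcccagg
Iars, isoleucine, chr13:49682097-49682156, + strand: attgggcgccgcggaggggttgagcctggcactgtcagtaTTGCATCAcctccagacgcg
Tars, threonine, chr15:11399654-11399713, - strand: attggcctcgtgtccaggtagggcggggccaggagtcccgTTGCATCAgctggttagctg
Yars, tyrosine, chr4:129189866-129189925, + strand: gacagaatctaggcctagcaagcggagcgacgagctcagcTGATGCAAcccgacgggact
In Aars the element begins 112 bases before the annotated gene start and in Tars 15 bases before it. In Iars it begins at base 8 after the start and in Yars at base 4, so that these copies lie in the first transcribed bases. In Aars, Iars and Tars it lies on the opposite strand and in Yars on the gene's own strand. A match is a description of the letters in this window and shows no binding. Of 22 integrated stress response genes with a promoter sequence, from a list given below, 4 held TGATGCAA (Chac1, Slc7a11, Nupr1 and Vldlr).

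The cytosolic enzymes mostly had higher signals on the Tmem132a siRNA array. All 20 had a probe set past the filter, 16 had a log2 ratio (Tmem132a siRNA over control siRNA) above 0, and 7 were at least 1.5-fold higher against 1 at least 1.5-fold lower. For comparison, a ratio above 0 was found for 51.8% of all 10678 measured genes, a signal higher by 1.5-fold or more for 8.83%, and a signal lower by that much for 9.1%. Among the 6147 genes whose brightest probe set lay in the signal range of the cytosolic enzymes, 5.6% were that much higher and 6.08% that much lower. The 7 include Farsa, whose value rests on a dim probe set that reached the filter signal (77.25) only on the Tmem132a siRNA array. Where probe sets had to reach that signal on both arrays, 6 of 20 were at least 1.5-fold higher, against 6.89% of 10158 genes. The median ratio of the cytosolic enzymes was 0.54, where the median of all genes was 0.02 and that of genes in the same signal range was 0.03. None of the 20 reached 2-fold in either direction. Wars did by its brightest probe set (1.01), by the median over its probe sets (1.05) and when probe sets with an x, s or a suffix were left out (1.09). Many values lay just under the 1.5-fold line: 12 of the 20 were at least 1.4-fold higher, against 12.7% of all genes.

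**Figure D1:**
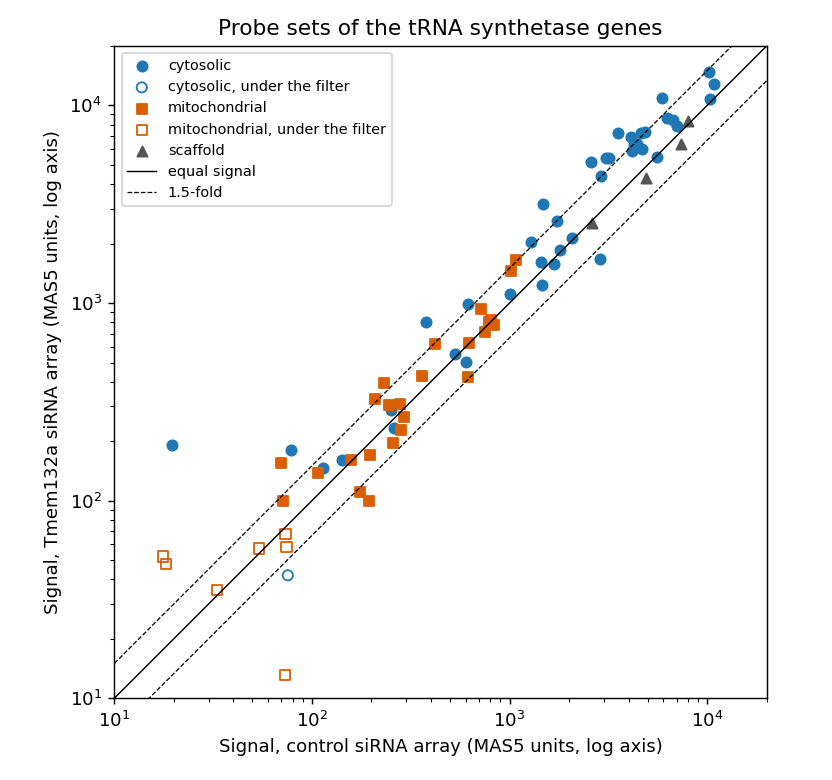
Signal of each of the 77 probe sets after control siRNA (horizontal) and after Tmem132a siRNA (vertical), both in MAS5 units on log axes, by group of genes, with open symbols for probe sets under the filter. Most bright cytosolic points lie above the line of equal signal, while the mitochondrial points, which are dimmer, lie on both sides of it.

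Wars, the tryptophanyl-tRNA synthetase, had the largest ratio among the members, 0.97 ± 0.20 (SD over 4 probe sets). Its signals went from 375.7 to 800.3, from 619.3 to 988.8, from 2581.3 to 5193.8 and from 1470.3 to 3162.9. All 4 probe sets were thus higher by 1.5-fold or more with the Tmem132a siRNA. Eprs, which carries the enzymes for glutamate and for proline in 1 protein, had a ratio of 0.67 ± 0.37 (SD over 4 probe sets). Its bright probe sets went from 5921 to 10870.7, from 4857.1 to 7331.5 and from 3539.3 to 7220.3, and its dim probe set from 250.5 to 286.1. The bright probe sets thus all gave at least 1.5-fold and the dim one did not.

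Rars, the arginyl enzyme, was measured by 1 probe set, which went from 4128.8 to 6919.2 (log2 ratio 0.74). Tars, the threonyl enzyme, went from 4621.3 to 7216 (0.64), also by 1 probe set. Wars, Eprs, Rars and Tars kept a ratio of at least 1.5-fold in 12 of 12 alternative settings. For Rars and Tars most of these settings are no check. Each has 1 bright probe set, which the filters, no floor and the choices among probe sets could not change. These 4 genes are spread over both classes: Wars and Rars are class I, Tars is class II, and Eprs holds an enzyme of each.

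The other 3 genes past 1.5-fold rested on probe sets that differed from each other. Iars, the isoleucyl enzyme, had signals of 3082.2 and 5396.6 by 1 probe set and of 4698.3 and 6051.1 by the other, with ratios of 0.81 and 0.37 and a mean of 0.59. By its brightest probe set it was under 1.5-fold (0.37), as it was with the median ratio of all probe sets set to 0 (0.58), when a pseudocount of 79.2 was added (0.58) and when probe sets with an x, s or a suffix were left out (0.37). Cars, the cysteinyl enzyme, went from 2080.8 to 2133.4 by its bright probe set and from 78 to 179.7 by its dim one. Its ratio of 0.62 became 0.04 by the brightest probe set.

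Farsa, the alpha subunit of the phenylalanyl enzyme, had a ratio of 0.91 ± 1.60 (SD over 4 probe sets). That value was set by a dim probe set, which went from 19.6 to 190.7 and passed the filter only through the Tmem132a siRNA array. Its other probe sets went from 1450.1 to 1608.6, from 260.2 to 232.4 and from 113.5 to 146.4, and by the brightest of them Farsa had a ratio of 0.15. Without the dim probe set the ratio of Farsa was 0.12. In the setting without x, s and a suffixes, where it was kept, Farsa came to 1.16. Farsb, the beta subunit of the same enzyme, had 3 bright probe sets that went from 1277.1 to 2037.9, from 2901.5 to 4399.5 and from 3169.2 to 5397.7. With a dim probe set (142 to 160.2) the gene value of Farsb was 0.55, and by its brightest probe set it was 0.77. The subunits of this enzyme therefore had unlike ratios where both were measured by their brightest probe sets.

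Another 5 cytosolic enzymes lay between 1.4-fold and 1.5-fold higher. Yars, the tyrosyl enzyme, went from 1743 to 2612.3, 1.499-fold. Sars, the seryl enzyme, went from 4440.4 to 6406 and from 4250.1 to 6331.4. Gars, the glycyl enzyme, which serves cytosol and mitochondria from the same gene, went from 10259.5 to 14746. Lars, the leucyl enzyme, had a ratio of 0.49, and Farsb, given above, belongs here too.

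The remaining cytosolic enzymes were spread around smaller values. Hars (histidine) and Aars (alanine) had ratios of 0.31 and 0.29, and both probe sets of each gene were above 0. Nars (asparagine), Kars (lysine, also for both compartments), Mars1 (methionine) and Qars (glutamine) lay between -0.09 and 0.11. Tarsl2, a gene for another threonyl enzyme outside the mitochondrial set, went from 600.8 to 500.6 (-0.26), opposite in direction to Tars.

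Vars, the valyl-tRNA synthetase, was the exception among the cytosolic enzymes. Its probe set went from 2865 to 1679.1, a log2 ratio of -0.77, or 1.71-fold lower. The ratio lay between -0.78 and -0.74 in 12 of 12 alternative settings. It rests on 1 bright probe set, so the filters, no floor and the choices among probe sets could not change it.

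**Figure D2:**
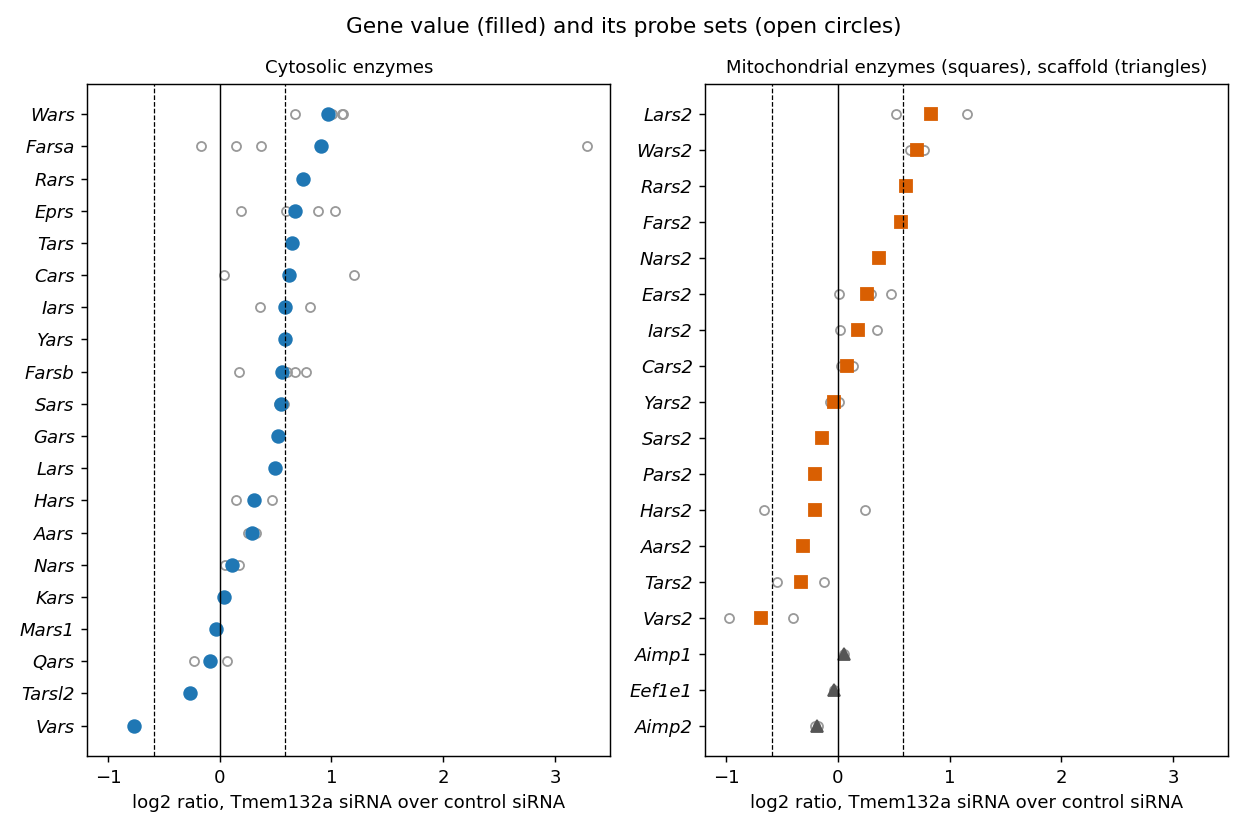
Log2 ratio of each gene (filled symbols) with its probe sets past the filter (open circles), for the 20 cytosolic enzymes on the left and the 15 mitochondrial enzymes and 3 scaffold genes on the right. Dashed lines mark 1.5-fold. Farsa is pulled to the right by 1 probe set, Vars and Vars2 are the lowest of their groups, and the scaffold genes lie near 0.

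Probe sets of the same gene were read on the same 2 arrays, so their spread gives the disagreement between probe sets. It does not hold the error between arrays or cultures. The SD of their log2 ratios around the mean of the gene was 0.39 over all genes, 0.68 over 11 cytosolic enzymes with several probe sets and 0.32 over 9 mitochondrial ones. The 0.68 comes mostly from Farsa (1.60) and Cars (0.83), while the other cytosolic enzymes lay between 0.03 for Sars and 0.37 for Eprs. Where only probe sets with a mean signal of at least 500 were used, the SD was 0.18 over 9 cytosolic enzymes and 0.24 over all genes. Of the 34 cytosolic probe sets that bright, 29 had a ratio above 0 and 13 were at least 1.5-fold higher, with a median of 0.51. They belong to 20 genes, several of which count more than once. The share over all probe sets that bright was not computed. Of the 6147 genes in the signal range of the cytosolic enzymes, 3272 lay above 0 and 5.6% were at least 1.5-fold higher.

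The mitochondrial enzymes did not share a direction. Of 16 genes, 15 had a probe set past the filter, and 8 of these had a ratio above 0 and 7 below 0. The median was 0.08. In this group 3 genes were higher by 1.5-fold or more and 1 lower by that much, while among the 5340 genes in their signal range 8.45% were that much higher and 9.83% that much lower. Lars2 is among the 3 through a dim probe set that reached the filter signal only on the Tmem132a siRNA array, and 2 of 15 were left where that signal was asked of both arrays. Their probe sets were dimmer than those of the cytosolic enzymes: the brightest probe set of each gene had a median signal of 420.1 on the control siRNA array, against 4156.5 for the cytosolic enzymes. Signals of different probe sets do not rank transcript levels, but ratios of dim probe sets are less precise.

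Lars2, the leucyl enzyme of mitochondria, had the largest ratio of the group, 0.84. Its bright probe set went from 1017.6 to 1456 and a dim one from 69.9 to 155.5, and by the bright one alone the ratio was 0.52. Wars2, the tryptophanyl enzyme, went from 207.7 to 325.8 and from 230.7 to 392.8, so that both probe sets were at least 1.5-fold higher (gene ratio 0.71). Rars2, the arginyl enzyme, went from 1077 to 1643.6 (0.61). Each of these 3 genes was under 1.5-fold when the same pseudocount was added, with ratios of 0.57, 0.55 and 0.58 for Lars2, Wars2 and Rars2.

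Vars2, the mitochondrial valyl enzyme, was lowest in its group as Vars was in the cytosolic one. Its probe sets went from 194.6 to 99.2 and from 258.3 to 195.1, both lower, with a gene ratio of -0.69 and -0.40 by the brighter probe set. The other 11 measured mitochondrial enzymes lay within 1.5-fold, from -0.33 for Tars2 to 0.57 for Fars2. The probe sets of Hars2, the histidyl enzyme, went opposite ways, from 359.8 to 424.9 and from 174.9 to 111. Without its probe set with an a suffix the ratio of Hars2 was -0.66, past 1.5-fold.

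Under the filter were 8 probe sets of the members, 7 of them mitochondrial. Mars2, the methionyl enzyme, had no other probe set and has no value here; its signals went from 74.4 to 58.5 and from 17.6 to 52.1. A dim Cars2 probe set went from 73.3 to 13.1, and with no filter the ratio of Cars2, the cysteinyl enzyme, was -0.73 instead of 0.08.

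Each cytosolic enzyme was then set beside the mitochondrial enzyme for the same amino acid. Such pairs could be formed for 15 amino acids, with Eprs used for both glutamate and proline and the mean of Farsa and Farsb for phenylalanine. The cytosolic ratio was the higher one in 12 pairs and the mitochondrial one in 3 (leucine, asparagine and valine), and the median difference was 0.41 on the log2 scale. Phenylalanine is among the 12 through the dim probe set of Farsa: by the brightest probe sets, or with the filter signal reached on both arrays, the cytosolic ratio was the higher one in 11 pairs and Fars2 lay above the mean of Farsa and Farsb. The medians of the whole groups, 0.54 and 0.08, were 0.46 apart. That distance was 0.20 with the filter at the 75th percentile of signal, which left 8 mitochondrial enzymes and 8 pairs, 5 of them with the cytosolic ratio higher. No test of the difference is possible with 1 array per group, and the cytosolic probe set was the brighter one in 15 of 15 pairs.

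In 5 pairs the ratios were at least 1.5-fold apart, and in all 5 the cytosolic enzyme was higher and its partner below 0. For threonine, Tars went from 4621.3 to 7216 while the probe sets of Tars2 went from 836.6 to 769.8 and from 617.9 to 424, a difference of 0.97 on the log2 scale. For proline, Eprs had a ratio of 0.67 while Pars2 went from 195.6 to 169.7 (-0.20). Serine gave the next difference, 0.69, with Sars at 0.55 and Sars2 going from 292.7 to 266. For tyrosine, Yars was at 0.58 while Yars2 had a ratio of -0.03, with probe sets that went from 748.9 to 711.4 and from 624.4 to 628.9. For alanine, Aars went from 6717.2 to 8428.8 and from 10822.4 to 12893.9, while Aars2 went from 282.4 to 228.2 (-0.31).

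Other pairs had like values. Tryptophan (0.97 for Wars, 0.71 for Wars2) and arginine (0.74 for Rars, 0.61 for Rars2) were high in both compartments, and valine (-0.77 for Vars, -0.69 for Vars2) was low in both. In all, 8 pairs had both ratios above 0, 1 had both below 0, and 6 had the cytosolic ratio above 0 and the mitochondrial one below. Across the 15 pairs Pearson's r was 0.58 and Spearman's rho 0.47. Without asparagine and valine, whose cytosolic ratios lay farthest from the median, r was 0.54 over 13 pairs. The values for phenylalanine, leucine and glutamate include dim probe sets of Farsa, Lars2 and Ears2 that reached the filter signal only on the Tmem132a siRNA array. The correlations were not computed without those probe sets. These are values across genes of the same pair of arrays, glutamate and proline share Eprs, and genes are not independent replicates.

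**Figure D3:**
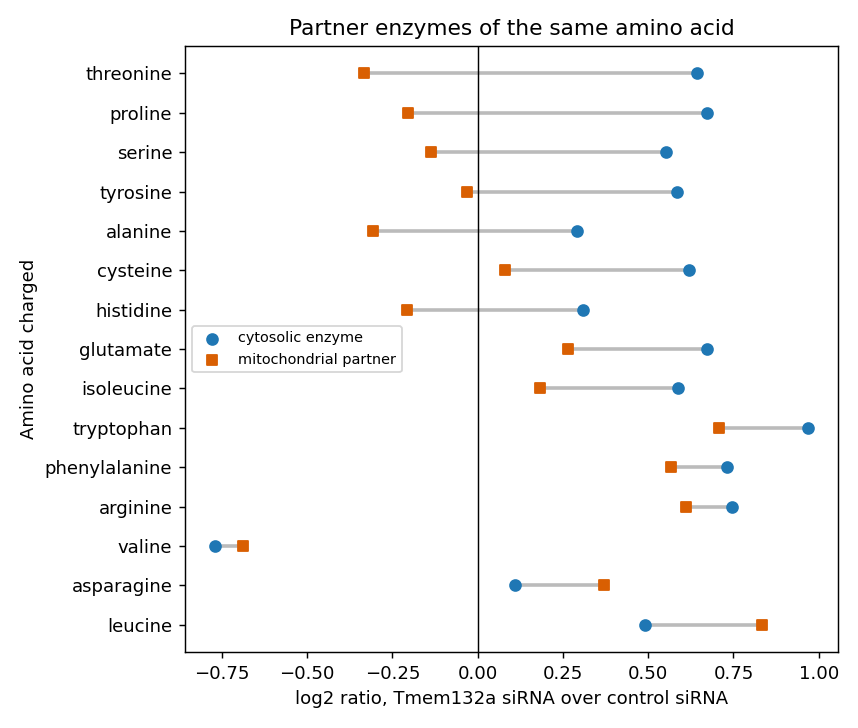
Log2 ratio of the cytosolic enzyme (circles) and of its mitochondrial partner (squares) for 15 amino acids, ordered by their difference. The cytosolic ratio lies to the right of its partner in 12 pairs; valine is the pair with both ratios below 0.

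Within the cytosolic enzymes the ratios were next divided by enzyme class and by membership of the multisynthetase complex. The 9 class I enzymes had a median of 0.58 and ranged from -0.77 to 0.97. The 10 class II genes had a median of 0.42 and ranged from -0.26 to 0.91, with Eprs in neither group. The 0.91 is Farsa, which was 0.12 where the filter signal was reached on both arrays. Medians by class and by complex were not computed in that setting. Among the mitochondrial enzymes, 6 of 8 of class I and 2 of 7 of class II had a ratio above 0, as did 51.8% of all genes. Their medians were 0.22 and -0.20. Signs changed in both classes: Cars2 (class I) was -0.73 with no filter, and Hars2 (class II) was 0.24 by its brightest probe set. These are few and mostly dim genes, and a difference between the classes was not tested. The 7 measured enzymes of the complex (Eprs, Iars, Kars, Lars, Mars1, Qars and Rars) had a median of 0.49 and the 13 others one of 0.55. The complex therefore held enzymes with ratios from -0.09 for Qars to 0.74 for Rars.

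The scaffold proteins of the complex had ratios near 0. Aimp1 went from 8009.6 to 8334.1 (0.06). Aimp2 went from 4880.9 to 4315.2 and from 7342.9 to 6385.2 (-0.19). Eef1e1, which binds the methionyl enzyme in the complex, went from 2619.5 to 2551.2 (-0.04). None of the 3 was 1.5-fold different in the main setting or in any of 12 alternatives. Aimp1 and Eef1e1 have 1 bright probe set each, so the filters, no floor and the choices among probe sets could not change them.

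Further genes of the pathway came from lists chosen by function. Of 31 genes of tRNA maturation, modification and export, 29 were measured, 19 lay above 0, 2 were higher by 1.5-fold or more and 0 lower by that much, with a median of 0.21. Over all genes 51.8% lay above 0 and 8.83% were that much higher, so the share of this list past 1.5-fold is near the background. The members past 1.5-fold were Xpot, the exporter of tRNA from the nucleus, at 0.64 over 3 probe sets (brightest from 7418 to 11006.3), and Adat2, a subunit of the tRNA adenosine deaminase, at 0.68. Of 13 measured genes of editing, transamidation, formylation and selenocysteine synthesis, 8 had a ratio above 0 and 1 was at least 1.5-fold lower. Over all genes 51.8% lay above 0 and 9.1% were that much lower, so the share of this list past 1.5-fold is near the background. The lower gene was Aarsd1, an editing protein for mischarged alanine tRNA, at -0.61. Pstk, a kinase of selenocysteine synthesis, had the next largest ratio, 0.52. Of 7 factors of mitochondrial elongation and initiation, Gfm2 (0.68) and Mtif3 (0.64) were at least 1.5-fold higher, and 0 were that much lower, against the same 8.83% and 9.1% of all genes. The cytosolic elongation factors, which bring charged tRNAs to the ribosome, had small ratios: 5 of 5 measured lay below 0, as did 48.2% of all genes, with a median of -0.10 and 0 of them 1.5-fold lower. Eef1a2 (-0.36) and Eef1d (-0.13, with probe sets from -0.31 to 0.10) lay farthest from 0, and Eef2 lay at -0.004.

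The integrated stress response list stood beside the cytosolic enzymes. Of 22 measured genes 20 lay above 0, 6 were higher by 1.5-fold or more and 0 lower by that much, with a median of 0.40. The shares over all genes were 51.8%, 8.83% and 9.1%. Trib3 (1.23), Ddit3 (1.01), Slc7a11 (0.76) and Gpt2 (0.70) were the highest. This list and the synthetases were already known to be higher on this array when they were chosen, so they do not support each other. Atf4 itself had a ratio of 0.31.

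**Figure D4:**
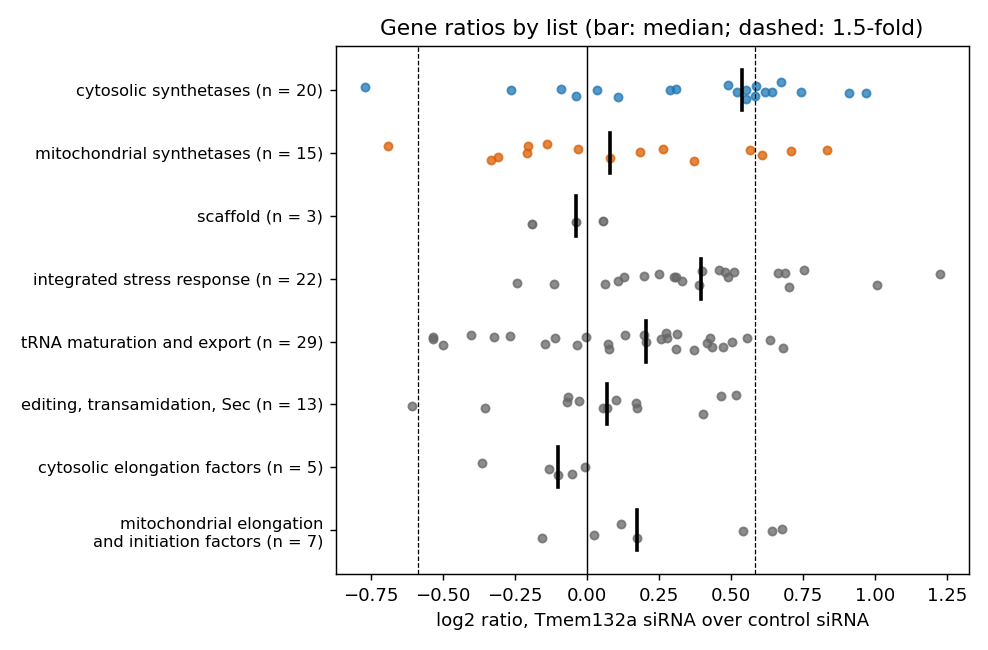
Log2 ratio of each measured gene (points) and the median (bars) for the synthetase groups and the other lists, with dashed lines at 1.5-fold. The median of the cytosolic enzymes is 0.54 and that of the integrated stress response list 0.40, while the cytosolic elongation factors all lie below 0.

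The genes whose promoters hold the C/EBP-ATF element were last set beside their ratios. Aars, Iars, Tars and Yars had ratios of 0.29, 0.59, 0.64 and 0.58, and Gars, with the looser form, one of 0.52. Farsb, Sars and Eprs had ratios of 0.55, 0.55 and 0.67 with no match in the window. These are examples with high ratios and do not stand for all cytosolic enzymes without a match. Whether ratios differ with the element among the synthetases was not tested. Of all measured genes with a promoter sequence, 63 held TGATGCAA, and these had a median ratio of 0.22, with 68.3% above 0 and 12.7% at least 1.5-fold higher. The 8635 genes without it had a median of 0.01, with 51.5% above 0 and 8.73% at least 1.5-fold higher. The 63 genes include the 4 synthetases and members of the stress response list. For the looser form the median was 0.04 over 233 genes.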

How the data were processed

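The authors deposited 1 signal intensity per probe set, linear and from MAS5, per the submitters' processing notes and the series text; its version and scaling are not given in the sources used here. The 2% trimmed mean was 500.003 on each array and was kept. Tools were matplotlib 3.10.9, scipy 1.17.1, pandas 2.3.3, statsmodels 0.14.6 and numpy 2.4.6 under Python 3.11.15. After 64 Affymetrix controls were left out, 45037 probe sets remained, named through the platform annotation where it gives 1 symbol. The filter kept probe sets whose signal, averaged over the arrays, reached the overall median (77.25). Signals under the 20th percentile (14.5) were raised to it. A gene value is the mean log2 ratio over its kept probe sets. Genes past 1.5-fold were counted without a test, as each group has 1 array.

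Signals are printed as deposited for members past the filter that differed at least 1.5-fold and for partner enzymes at least 1.5-fold apart; other members are given by ranges, counts or as examples. Of each further list, up to 4 members past 1.5-fold are named, or the 2 with the largest ratio; Atf4 was named after its value was seen. Members, lists and alternatives were chosen with earlier results of these data known. The procedure was run on simulated data with the same noise at all signals and planted changes larger than 1.5-fold. That run therefore does not cover dim probe sets or values near the 1.5-fold line.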

Additional observations from a re-analysis of the deposited data

How the results depend on the processing

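The median of the cytosolic enzymes stayed between 0.40 and 0.57 in 14 alternatives, and that of the mitochondrial enzymes between 0.02 and 0.20 in 13. The distance between them ran from 0.20 to 0.53 and was positive in 14 of 14. With the filter at the 75th percentile of signal (462.8), which left 8 mitochondrial enzymes, their median was 0.20, the distance 0.20, and 1 of them was at least 1.5-fold higher and 0 lower. The cytosolic enzyme was then the higher one in 5 of 8 pairs, against 12 of 15. Adding a pseudocount of 79.2 instead of the floor shrinks the ratios of dim genes, and left 4 cytosolic and 0 mitochondrial enzymes at least 1.5-fold higher and 0 mitochondrial ones lower. The count of lower mitochondrial enzymes, 1 in the setting reported, was 2 with no filter, 2 without x, s and a probe sets, and 0 when only the brightest probe set was used. A size rule of 1.4-fold, added after the data were seen, gave 12 cytosolic enzymes. Quantile normalization, no rescaling, a loess with a span of 0.3, centring on the median, no floor, the median over probe sets and the filter signal reached on both arrays (these 2 also added after the data were seen), Tarsl2 counted as mitochondrial, and leaving out Gars and Kars kept each of these counts within 1.5 times. Of 444 values of single genes under alternatives, 434 moved by less than the SD between probe sets of 1 gene (0.39). Of those past 1.5-fold, 0 changed sign. Many of the 444 could not move. The trimmed means were already equal, the floor touched no kept probe set of the members, and choices among probe sets leave genes with 1 probe set unchanged. A move within that SD can still end a 1.5-fold call, as for Iars at 0.37 by its brightest probe set. No paired analysis was possible because each group has 1 array. Culture and array error cannot be told apart from the difference between the groups.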
